A study of Arabidopsis thaliana with 6 samples.

Results

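WRKY proteins are plant transcription factors that share a DNA-binding domain with a zinc finger and bind a promoter element called the W-box. Many of them act in defence, senescence and nutrient signalling, and several are themselves switched on soon after a pathogen signal and bind the promoters of other WRKY genes. The family is divided by its domains into group I, whose members carry a pair of WRKY domains, groups IIa to IIe and group III. The members described here are all probe sets of the array whose annotation names 1 gene with a symbol made of WRKY or ATWRKY and a number. A probe set is a group of short oligonucleotides that together measure a transcript. The rule found 6 of 22746 probe sets, for WRKY6, WRKY20, WRKY22, WRKY42, WRKY47 and WRKY53. Each is the only member probe set of its gene. The reference annotation lists 72 genes with a WRKY number as symbol or synonym. ZAP1, which is WRKY1, also has a probe set of its own but is filed under its other symbol, and the annotation ties no probe set to any of the remaining 65 genes by itself. Of the 6 members, 5 lie on chromosome 4. The 6 members therefore do not stand for the family.

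RNA came from whole 10-day-old seedlings of the ecotype Col-0, either carrying a 35S:P53 transgene or wild type (WT). The transgene expresses human p53 from the cauliflower mosaic virus 35S promoter, which is active in most plant cells, and the sources used here do not say which transgenic line or lines were hybridized. Each genotype had 3 samples, which the labels ascribe to independent biological experiments, and each sample was hybridized to a GeneChip Arabidopsis ATH1 array. The deposited values are logs, taken here as log2, centred so that the median of a probe set across all 6 arrays is 0, so that a value says how far an array lies above or below that median and gives no expression level. Levels of different WRKY genes can therefore not be compared, and the seedling label could not be checked against the level of tissue markers. The medians of the arrays lay between -0.02 and 0.01. The SD over all probe sets was highest in p53 replicate 3, at 0.45, and lay between 0.26 and 0.36 on the other arrays.

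WRKY6 was higher in p53-transgenic seedlings, and none of the other members passed the test in either direction. WRKY6 (AT1G62300) belongs to group IIb, is associated with senescence and defence, and represses the phosphate exporter gene PHO1. Its centred values were 0.76, 0.45 and 1.25 in p53 replicates 1, 2 and 3, against -0.70, -0.59 and -0.45 in WT replicates 1, 2 and 3. Every p53 array lay above every WT array, and the lowest p53 array stood 0.89 above the highest WT array on the log2 scale. The mean was 0.82 ± 0.40 (SD, n = 3) in p53-transgenic seedlings and -0.58 ± 0.13 (SD, n = 3) in WT, a log2 difference (p53 minus WT) of 1.39 with a standard error of 0.20 and a 95% confidence interval from 0.92 to 1.87. This corresponds to a 2.63-fold higher signal if the base of the log is 2, and the adjusted p was 0.00544 from limma with Benjamini-Hochberg adjustment over all 22746 probe sets. For the same difference the methods' t-test, the plain test that the paper names, gave an adjusted p of 0.0611. In size the difference was larger than that of 96.8% of all probe sets. In whole seedlings, more cells of a type that expresses the gene and more RNA per cell cannot be told apart.

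**Figure D1:**
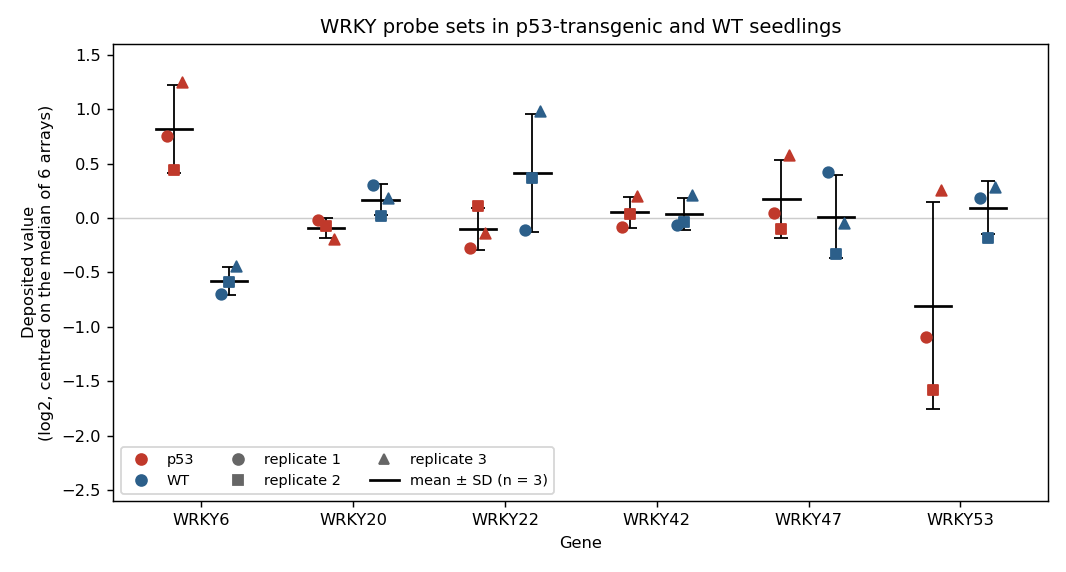
Centred log2 value (vertical axis) of the 6 WRKY probe sets in each p53 (red) and WT (blue) array, with the mean and SD of 3 arrays as bars and the replicate number as the marker shape. WRKY6 is the member with a wide gap between the genotypes, and for WRKY53 p53 replicate 3 lies at 0.25, among the WT arrays, while p53 replicates 1 and 2 lie at -1.09 and -1.58.

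Across the members, 1 of 6 was higher and 0 of 6 were lower at an adjusted p under 0.05 from limma. Over all probe sets 6.55% were higher and 8.84% lower, so 15.4% passed in either direction, and the count of 1 of 6 is close to that background. At an unadjusted p under 0.05 from limma 2 of 6 members passed, WRKY6 and, in the opposite direction, WRKY20, which is also close to the 29.2% of all probe sets. By the methods' t-test 0 of 6 members passed after adjustment, against 6.2% of all probe sets, and without adjustment 1 of 6 had a p under 0.05, against 24.9%. At the paper's thresholds, an unadjusted p below 0.05 together with a change of more than 2-fold, limma called 1 member higher and 0 lower, against 3.14% of all probe sets higher and 2.73% lower. The methods' t-test at these thresholds likewise called WRKY6 higher and 0 members lower, against 2.57% of all probe sets higher and 2.53% lower. The arrays of the genotypes did not overlap for 2 of 6 members, against 34.3% of all probe sets. The median log2 difference of the 6 members was -0.12 and that of all probe sets -0.01, with members running from -0.90 for WRKY53 to 1.39 for WRKY6. With ZAP1 counted as a 7th member, an addition made after the data were seen, the median was 0.02.

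**Figure D2:**
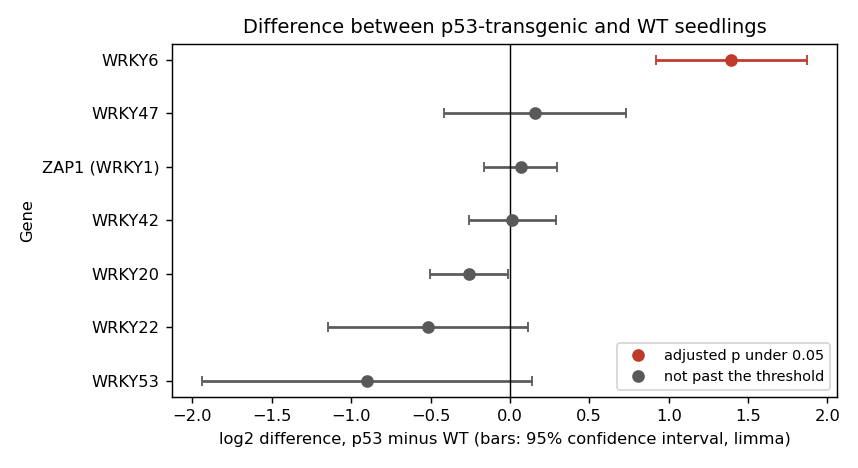
Log2 difference (horizontal axis, p53 minus WT) with its 95% confidence interval from limma for the 6 WRKY members and for ZAP1, ordered by size. The interval of WRKY6 runs from 0.92 to 1.87, and that of WRKY53, the widest, from -1.94 to 0.14.

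The other group IIb members, WRKY42 and WRKY47, did not pass the test. WRKY42 (AT4G04450), which like WRKY6 represses PHO1, had values of -0.08, 0.03 and 0.21 in p53 replicates 1, 2 and 3, against -0.06, -0.03 and 0.21 in WT replicates 1, 2 and 3. The arrays of the genotypes overlapped fully. Its log2 difference was 0.02 (95% confidence interval -0.26 to 0.29, adjusted p = 0.957 from limma), so these arrays leave room for a signal between 0.835 and 1.22 times that of WT. WRKY47 (AT4G01720) had values of 0.05, -0.10 and 0.58 in p53 replicates 1, 2 and 3, against 0.42, -0.33 and -0.05 in WT replicates 1, 2 and 3. Its arrays also overlapped, the highest value being that of p53 replicate 3 and the lowest that of WT replicate 2. The log2 difference was 0.16 (95% confidence interval -0.41 to 0.73, adjusted p = 0.737), an interval wide enough for a 1.66-fold higher signal.

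The change of WRKY6 was set against that of each other member, array by array. WRKY6 minus WRKY42 was 0.76 ± 0.32 (SD, n = 3) on p53 arrays and -0.62 ± 0.05 (SD, n = 3) on WT arrays, which differ by 1.38. For WRKY47 the same contrast was 0.64 ± 0.08 on p53 arrays and -0.59 ± 0.46 on WT arrays (SD, n = 3 each), a difference of 1.23. Over all 5 such pairs the contrast differed by 1.23 to 2.29 between genotypes, and in each of them the p53 arrays lay above the WT arrays. Each contrast contains the gap of WRKY6 itself, so these values are a description. An exact permutation test gave p = 0.1 for every pair. This is the smallest value possible with 3 arrays against 3, so that test could not reach 0.05 and decides nothing here.

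WRKY53 had the lowest difference of the members and the widest spread among the p53 arrays. WRKY53 (AT4G23810), of group III, is an activator of leaf senescence that acts early in its onset. Its values were -1.09, -1.58 and 0.25 in p53 replicates 1, 2 and 3, against 0.18, -0.18 and 0.28 in WT replicates 1, 2 and 3. Replicates 1 and 2 of p53 lay below all WT arrays, whereas p53 replicate 3 lay within the range of WT. The mean was -0.81 ± 0.95 (SD, n = 3) in p53-transgenic seedlings and 0.09 ± 0.24 (SD, n = 3) in WT, a log2 difference of -0.90 with a standard error of 0.44 and a 95% confidence interval from -1.94 to 0.14 (adjusted p = 0.232 from limma). Without p53 replicate 3 the difference was -1.43 (standard error 0.19, adjusted p = 0.00533), and it did not pass without any other single array, where it lay between -1.04 and -0.51 and the adjusted p between 0.294 and 0.470. Over all alternatives the adjusted p ran from 0.00533 to 0.470. The same-numbered arrays differed by -1.27 for replicate 1, -1.40 for replicate 2 and -0.03 for replicate 3 (p53 minus WT).

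WRKY22 was the member that varied most among the WT arrays. WRKY22 (AT4G01250), of group IIe, acts downstream of a mitogen-activated protein kinase cascade in the response to bacterial flagellin. Its values were -0.28, 0.11 and -0.14 in p53 replicates 1, 2 and 3, against -0.11, 0.36 and 0.98 in WT replicates 1, 2 and 3. The genotypes overlapped, with WT replicate 1 among the p53 arrays and WT replicate 3 far above them. The mean was -0.10 ± 0.19 (SD, n = 3) in p53-transgenic seedlings and 0.41 ± 0.55 (SD, n = 3) in WT, and the SD among WT arrays was above that of 98.9% of all probe sets. The log2 difference was -0.52 (standard error 0.26, 95% confidence interval -1.14 to 0.11, adjusted p = 0.258 from limma). Without WT replicate 3 it was -0.23, and without WT replicate 1 it was -0.78, with adjusted p of 0.561 and 0.0983.

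WRKY20 (AT4G26640), of group I, had a small difference with arrays that did not overlap. The values were -0.01, -0.07 and -0.19 in p53 replicates 1, 2 and 3, against 0.30, 0.01 and 0.19 in WT replicates 1, 2 and 3. The highest p53 array and the lowest WT array stood only 0.03 apart. The log2 difference was -0.26 (standard error 0.10, 95% confidence interval -0.50 to -0.01), with an unadjusted p of 0.0411 and an adjusted p of 0.152 from limma, which did not pass. ZAP1 (AT2G04880), also of group I and outside the rule by its symbol, had values of 0.01, -0.09 and 0.07 in p53 replicates 1, 2 and 3, against -0.01, -0.22 and 0.01 in WT replicates 1, 2 and 3. These overlapped, and the log2 difference was 0.07 (95% confidence interval -0.16 to 0.30, adjusted p = 0.713).

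**Figure D3:**
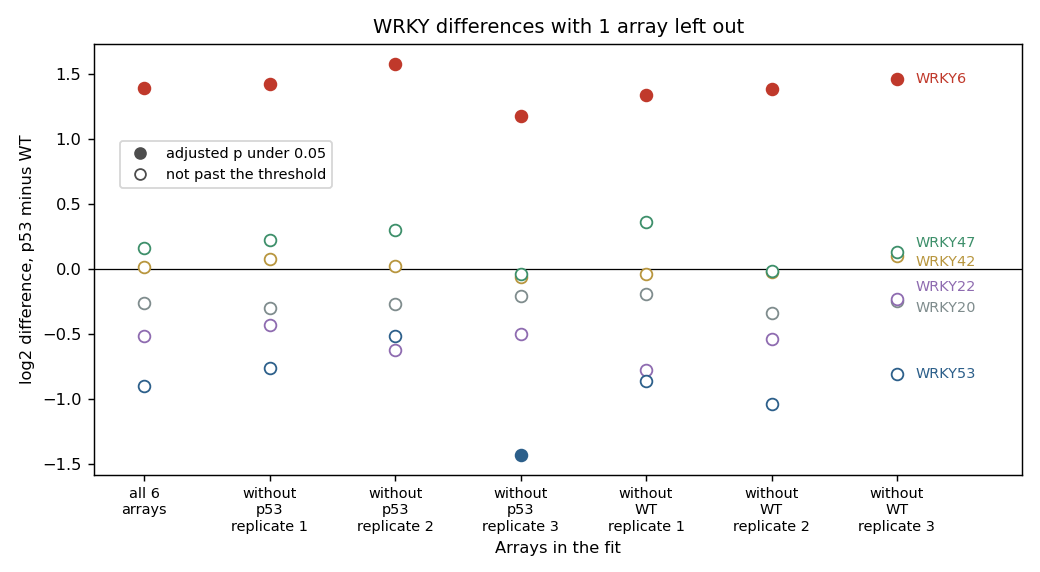
Log2 difference (vertical axis, p53 minus WT) of each WRKY member with all 6 arrays and with each array left out in turn, filled where the adjusted p from limma is under 0.05. WRKY6 is filled in every fit, between 1.18 and 1.58, and WRKY53 is filled without p53 replicate 3, at -1.43, and in no other fit shown.

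WRKY6 passed with every single array left out, with log2 differences from 1.18 without p53 replicate 3 to 1.58 without p53 replicate 2 and adjusted p from 0.00176 to 0.0320. Its same-numbered arrays differed by 1.46, 1.04 and 1.69 for replicates 1, 2 and 3 (p53 minus WT). Any pairing would give positive differences, since every p53 array lay above every WT array, so their sign adds nothing.

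The spread among the p53 arrays differed from member to member. The SD over the 3 p53 arrays was 0.95 for WRKY53, above that of 99.2% of all probe sets, and 0.40 for WRKY6, above 90.2%. For these genes it was 3.89 and 3.19 times the SD over the 3 WT arrays. Without p53 replicate 3 the SD among the p53 arrays was 0.34 for WRKY53 and 0.22 for WRKY6, and the median over the 6 members was 0.16. For both genes replicate 3 was the p53 array farthest from the others, and leaving out such an array lowers the SD in any case. Without p53 replicate 1 the SD was 1.29 for WRKY53 and 0.57 for WRKY6, and without p53 replicate 2 it was 0.95 and 0.35. WRKY47, WRKY22, WRKY42 and WRKY20 had SDs of 0.36, 0.19, 0.14 and 0.09 among p53 arrays, against 0.38, 0.55, 0.15 and 0.14 among WT arrays, so the p53 arrays were the more variable for 2 of 6 members, against 65.3% of all probe sets. The median SD of the members was 0.28 among p53 arrays and 0.20 among WT arrays, and over all probe sets it was 0.15 among p53 arrays and 0.11 among WT arrays. This order of the members' medians turned round after quantile normalization, with 0.20 among p53 arrays and 0.23 among WT arrays, while all probe sets then had 0.13 among p53 arrays and 0.12 among WT arrays. Quantile normalization gives all arrays the same distribution of centred values, so it evens out array-wide differences in spread by construction. The share of all probe sets with the larger SD among p53 arrays was then 51.7%. After the same normalization the SD of WRKY53 was 1.1 among p53 arrays and 0.29 among WT arrays, and that of WRKY6 was 0.21 among p53 arrays and 0.14 among WT arrays. With 3 arrays for each genotype these spreads are given as a description and were not tested.

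**Figure D4:**
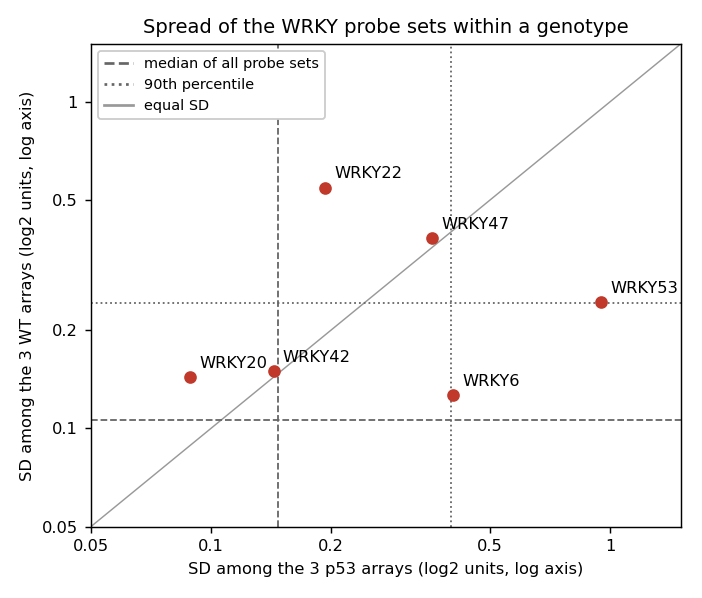
SD of each WRKY member among the 3 p53 arrays (horizontal, log axis) and among the 3 WT arrays (vertical, log axis), in log2 units, with the median and the 90th percentile of all 22746 probe sets as dashed and dotted lines and equal SD as the diagonal. WRKY53 and WRKY6 lie to the right of the diagonal, at 0.95 and 0.40 among p53 arrays.

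Replicate 3 was the p53 array that lay farthest from the mean of the other p53 arrays for 5 of 6 members, the exception being WRKY22, where it was replicate 2. Over all probe sets it was replicate 3 for 46.5%, replicate 2 for 34.5% and replicate 1 for 19.1%. Replicate 3 was the highest p53 array for WRKY6, WRKY42, WRKY47 and WRKY53 and the lowest for WRKY20. Among the WT arrays, replicate 3 was highest for WRKY6, WRKY22, WRKY42 and WRKY53, and replicate 1 for WRKY20 and WRKY47. The p53 arrays of WRKY6, WRKY47 and WRKY53 took the same order, with replicate 2 lowest, replicate 1 between and replicate 3 highest, an order found in 28.1% of all probe sets. Among the 2898 probe sets whose range over the p53 arrays was at least that of WRKY47, 36.8% had this order and 44.5% had its reverse. The WT arrays of WRKY53 also had replicate 2 lowest, replicate 1 between and replicate 3 highest, but those of WRKY6 and WRKY47 did not. Between p53 replicates 3 and 2 the value differed by 1.83 for WRKY53, 0.80 for WRKY6 and 0.68 for WRKY47. In WRKY6 this split stood on top of a shift from WT that all p53 arrays shared, as its p53 replicates 1, 2 and 3 lay 1.34, 1.02 and 1.83 above the WT mean. In WRKY53 the corresponding values were -1.19, -1.67 and 0.16.

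None of the genes listed as acting with or downstream of WRKY factors, or in leaf senescence, passed the test, as far as they could be named. Of 61 such genes 6 have a probe set of their own, and none of the 6 passed in either direction by limma or by the methods' t-test, whether p was adjusted or not. Against the shares of all probe sets that passed, 15.4% by limma and 6.2% by the methods' t-test after adjustment and 29.2% and 24.9% without it, a count of 0 of 6 says little. They cover 1 of 21 kinases and partners, 3 of 20 defence genes, 1 of 9 other downstream genes and 1 of 11 leaf senescence genes. SAG101, a partner of the defence regulators EDS1 and PAD4, had values of 0.44, -0.52 and 1.11 in p53 replicates 1, 2 and 3, against -0.11, -0.11 and 0.11 in WT replicates 1, 2 and 3. The p53 arrays lay on both sides of the WT arrays, and the log2 difference of 0.38 had an adjusted p of 0.574. Without p53 replicate 2 SAG101 passed (0.81, adjusted p = 0.0363), and over all alternatives its adjusted p ran from 0.0363 to 0.9997. GRX480, a glutaredoxin induced by salicylic acid, had values of 0.35, -0.92 and 1.08 in p53 replicates 1, 2 and 3, against -0.74, -0.35 and 0.51 in WT replicates 1, 2 and 3. APG8A, an ATG8 protein of autophagy on the senescence list, had values of -0.07, -0.53 and 0.51 in p53 replicates 1, 2 and 3, against 0.07, 0.003 and -0.003 in WT replicates 1, 2 and 3. Of these 6 genes 3, SAG101, GRX480 and APG8A, had p53 replicate 2 lowest and replicate 3 highest, as WRKY53 did, against 28.1% of all probe sets. The p53 ranges of these 3 genes exceed that of WRKY47. Among the 2898 probe sets with at least that range, 36.8% had this order and 44.5% its reverse. IKU1 had the reverse order, found in 25% of all probe sets, and PDF1.2 and IKU2 had replicate 1 lowest. The WT arrays of SAG101 also had replicate 2 lowest and replicate 3 highest, but those of GRX480 and APG8A did not.

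The defensin gene PDF1.2 differed by -0.16 (p53 minus WT, 95% confidence interval -2.33 to 2.02) and varied more than 99.9% of all probe sets within each genotype. Its p53 arrays, from -2.10 in replicate 1 to 1.19 in replicate 3, covered the WT arrays, from -1.27 in replicate 1 to 1.14 in replicate 3. The same-numbered arrays of PDF1.2 differed by -0.83, 0.32 and 0.05 for replicates 1, 2 and 3 (p53 minus WT). With the replicate number fitted as a block the standard error of its difference was 0.23, against 0.92 without. IKU1, a VQ protein that partners a WRKY factor in the endosperm, and IKU2, a receptor kinase of the same pathway, differed by 0.04 and -0.09, with adjusted p of 0.878 and 0.630 from limma. Of 6 listed shoot markers 1 could be named, FMA of the stomatal lineage, and of 6 listed root markers 2, PYK10 and EXPA7. FMA, PYK10 and EXPA7 differed by -0.10, -0.03 and -0.02, and none passed (adjusted p from 0.689 to 0.947 from limma), against 15.4% of all probe sets. So few markers say little about tissue composition.

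**Figure D5:**
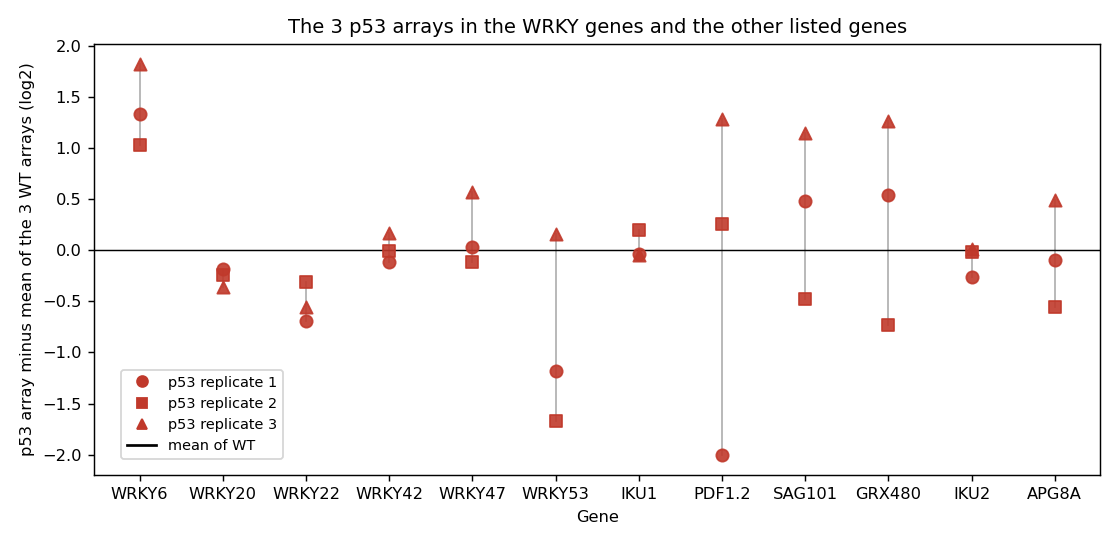
Distance of each p53 array from the mean of the 3 WT arrays (vertical axis, log2 units) for the 6 WRKY members and the 6 other listed genes that could be named, with the replicate number as the marker shape. All p53 arrays of WRKY6 lie above the WT mean, by 1.02 to 1.83, while those of WRKY53, SAG101 and GRX480 spread over 1.83, 1.62 and 2.0 units and cross it.

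Genes next to the WRKY members on the chromosome were looked up after the values of the members were seen. In the gene order of the reference, 9 of the 12 neighbouring positions hold a gene with a probe set of its own, and 2 of these 9 neighbours passed the test, against 15.4% of all probe sets. AT1G62290, beside WRKY6, had a log2 difference of 1.93 (standard error 0.28, adjusted p = 0.00561 from limma), in the same direction as WRKY6. AT4G26650, beside WRKY20, had one of 0.69 (standard error 0.10, adjusted p = 0.00536), against -0.26 for WRKY20. The measured neighbours of WRKY53, 3xHMG-box2 and AT4G23820, both differed by -0.04 and did not pass, and the other 5 neighbours lay between -0.29 and 0.17.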

How the data were processed

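Total RNA was labelled with the MessageAmp Premier kit and hybridized to the ATH1 array. The labels name TRIzol and the methods the RNeasy kit for extraction. The log2 values were deposited by the authors after summarization with PLIER, which the submitters' processing notes name. Statistics in the paper were run in GeneSpring. The paper's array quality table lists a common scaling target, without saying whether it applies to the deposited PLIER values, and the sources used here state neither the background correction of these values nor their log base. The same quality table marks all 6 arrays as outside bounds in its threshold test and does not give the bounds. The median of every probe set over the 6 arrays is 0. No pair of arrays held identical values.

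Of 22810 probe sets, 64 controls were left out. Of the other 22746, 13513 name 1 gene, 503 name several and 8730 are not named in the annotation used here. Locus names, synonyms and gene order come from the TAIR10.1 reference through gene identifiers. W-boxes in promoters were not counted here. No sequences are shown, and no coordinates, since the build behind the probe sets is not stated.

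Differences (p53 minus WT) were fitted on all 22746 probe sets with lmFit and eBayes of limma 3.58.1 under R 4.3.3 (no covariate), with Benjamini-Hochberg adjustment and a threshold of 0.05, on the values as deposited. Of the steps, only the fits were run on simulated data, with independent normal noise and the same SD in both genotypes. Those simulated data lack the possible pairing and the unequal spreads of these arrays. The number of arrays limits the precision. Members and lists were chosen with earlier results of these data known. Named were WRKY6, WRKY22 and WRKY53, members past the threshold, the 4 members with the largest SD among p53 arrays, and up to 4 genes of each list. WRKY20 and WRKY42 complete the 6 members, and ZAP1 and the neighbouring genes were added after their values were seen.

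The labels give both genotypes the same replicate numbers. Over all probe sets, the deviations of a p53 array and the WT array of its number from their group means had r = 0.12, 0.27 and 0.34. All exceed the limit of 0.1, so the numbers may pair the arrays, on the basis of the data alone. The fit behind the values given here does not use the pairing, and fitting the number as a blocking term was an alternative. Deviations cancel within a genotype, so these values are not independent of each other. Alternatives were quantile normalization, centring of each array, eBayes with trend and robust, the replicate block, the methods' t-test, probe sets naming 1 gene only, the paper's thresholds on the unadjusted p and on the fold change, and leaving out each array.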

Additional observations from a re-analysis of the deposited data

How the results depend on the processing

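WRKY6 passed under 11 of 12 alternatives, with log2 differences from 1.18 to 1.58, and did not with the methods' t-test (adjusted p = 0.0611), where the count of members higher was 0. Leaving out single arrays gave 1 member higher each time and 0 to 1 lower, the 1 being WRKY53 without p53 replicate 3. Of all 22746 probe sets, 3500 passed in either direction with all 6 arrays and 3934 without p53 replicate 3. Over the fits without 1 array this count ran from 1621 (without WT replicate 3) to 4346 (without p53 replicate 2). Leaving out single arrays gave a median log2 difference of the members from -0.18 to -0.06 and a median SD among p53 arrays from 0.16 (without p53 replicate 3) to 0.33. The ratio of the median SDs, p53 over WT, was 1.4 as deposited and 0.858 after quantile normalization, which evens out array-wide spread by construction. With the replicate number as a block WRKY6 had an adjusted p of 0.00572 and WRKY53 of 0.0976, and the block changed no call among the 6 members, ZAP1, the listed genes and markers, and the 9 measured neighbours. Some of the members, listed genes and markers that did not pass, and ZAP1, changed sign when single arrays were left out. WRKY20, WRKY22, WRKY53, IKU2 and FMA kept their sign under every alternative. The ranges of those that changed sign were -0.061 to 0.10 for WRKY42, -0.041 to 0.36 for WRKY47 and -0.0029 to 0.11 for ZAP1. They were -0.045 to 0.080 for IKU1, -0.88 to 0.77 for PDF1.2 and -0.00026 to 0.81 for SAG101. For GRX480 the range was -0.10 to 0.90 and for APG8A -0.32 to 0.20. The markers ranged from -0.059 to 0.0090 for PYK10 and from -0.10 to 0.079 for EXPA7, which was also 0.0025 after quantile normalization. The cause of these changes was not tested. Centring removed all levels, so signal over background could not be read.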
